A study of Mus musculus with 2 samples.

Results

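The histone genes on 2 mouse arrays were taken by name, as every probe outside the controls whose gene name starts with Hist1h, Hist2h, Hist3h, Hist4h, H2af, H1f or H3f. The rule found 92 probes for 71 genes, of 37068 gene names on the array. Of these, 56 have Hist names and are called clustered (68 probes), and the other 15 are called variant genes (24 probes). Most of the clustered genes are replication-dependent. By name the group also holds testis genes, the pseudogene Hist3h2bb-ps, and Hist1h2al, whose probe lies apart from the Hist1 cluster. RNA of mouse blood was hybridised to 1-colour Agilent arrays, with 1 array from heated and 1 from control blood. The heated sample stood for 1 h at 37 °C in a water bath and then for 1 h at 38.5 °C, and the study asked which genes this treatment affects. Strain, age, sex and number of animals, the object that was warmed (animal or drawn blood) and the control's temperature were not given in the sources used here. Heating, pretreatment and handling therefore cannot be told apart. The labels name 3 replicates, but 1 array per group was analysed here, so replicate spread is unknown and no p-values are given.

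Histones are the proteins that package DNA. H2A, H2B, H3 and H4 form the nucleosome core, and H1 binds the DNA between nucleosomes. Most clustered genes are transcribed in S phase, when new DNA needs packaging, and most of their mRNAs end in a conserved stem-loop in place of a poly(A) tail. Most variant genes lie outside the clusters and are made through the cell cycle. They mostly give polyadenylated mRNAs whose proteins replace the replication-dependent ones at particular sites.

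Values are the scanner's processed signal, and a difference is heat minus control on the log2 scale after each array's 75th percentile was subtracted. The 75th percentile was 604 (heat) and 620 (control), 53.8% and 52.0% of probes were well above background, and no spot was saturated. The arrays shared a slide and a scan. A gene was measured when at least 1 probe was well above background on both arrays, and its difference is the mean over such probes. The only repeat within an array was that of probes printed at several spots, whose spot differences had an SD of 0.08 (283 probes).

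The labelled tissue was blood. All 8 monocyte and macrophage markers examined were detected on both arrays, against 2 of 6 for B cells, 4 of 6 on the array for T cells, 5 of 7 for neutrophils, 1 of 5 for platelets and 1 of 6 for red cells. For NK cells, 3 of 5 were detected after heat and 2 in the control. The B cell gene Ms4a1 and the red cell gene Alas2 were not well above background. Measured macrophage markers were between -0.0040 and 0.36, with a median difference of 0.07. Among the measured markers of other cells, the value furthest from 0 was -1.68 for NK cells (Prf1) and -0.37 for neutrophils (Camp). It was 0.33 for B cells (Cd79b), 0.29 for T cells (Cd3d) and 0.26 for platelets (Pf4, the 1 measured). These are extremes and not shared by their lists. The other measured NK gene, Klrb1c, was at -0.0051 and the other B cell gene, Cd22, at 0.03. The neutrophil median was 0.02, and the T cell gene Cd3e was at -0.12. The part of these markers in the histone values was not tested, and fewer cells of a type cannot be told apart from less RNA per cell.

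The clustered genes differ by few bases, which sets what a probe can tell apart. The 5 probes below cover the end of the H2A coding sequence on either of 2 chromosomes, and are shown because the gene with the lowest H2A cluster value, Hist1h2ah, lies among its near copies. Capitals mark bases that differ from the Hist1h2ak probe, aligned without gaps, and each is read from the array design 5′ to 3′.
Hist1h2ak: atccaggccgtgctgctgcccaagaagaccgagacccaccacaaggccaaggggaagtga
Hist1h2af: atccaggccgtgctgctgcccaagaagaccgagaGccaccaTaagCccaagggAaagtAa
Hist1h2an: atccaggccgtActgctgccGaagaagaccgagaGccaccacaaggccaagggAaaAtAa
Hist2h2aa2: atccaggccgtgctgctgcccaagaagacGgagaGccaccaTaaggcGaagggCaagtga
Hist1h2ah: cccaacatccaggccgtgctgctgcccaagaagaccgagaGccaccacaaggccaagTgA

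The Hist1h2ah probe (mm9, chr13:22127035-22127094, minus strand) matched that of Hist1h2ak at 51 of 54 overlapping bases. The probes of Hist1h2af, Hist1h2an and Hist2h2aa2 matched it at 55, 54 and 55 of 60 bases. The array design assigns both the Hist1h2ah and the Hist1h2ak probe to transcripts of 4 RefSeq genes. Of the 75 histone probes well above background on both arrays, 19 list several RefSeq genes, 47 list 1 and 9 list none. A clustered gene's value can thus hold signal of its near copies.

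The 3′ stem-loop lies within 5 of the clustered probes. It is the element that the protein SLBP binds. They are shown because the mRNA end is what sets the clustered genes apart from the variants. The search took a 6-base stem that starts with GGC, a loop of TTT and any base, and the reverse complement of the stem, on the probe strand, and 6 of all 56595 probes (0.0106%) held it. Capitals mark the stem.
Hist1h2bf: caaaGGCTCTtttcAGAGCCacct
Hist1h3a: caaaGGCTCTtttcAGAGCCaca
Hist1h3i: aaaaGGCTCTtttcAGAGCCccct
Hist1h4m: taaaGGCCCTtttcAGGGCCatcc
Hist2h2bb: aaaaGGCTCTtttcAGAGCCactt

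Histone genes were detected at a higher rate than the array as a whole, and few differed between the arrays. Of the 71 genes, 60 were measured on both arrays (84.5%), against 50.1% of all gene names. Over these 60 genes the median difference was 0.05 (SD between genes 0.16), from -0.44 for H2afy3 to 0.42 for Hist1h1c. The median over all 18562 measured genes was 0.0076 (SD 0.24).

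The direction of the small differences leaned to the heat array. Of the 60 genes, 40 (66.7%) had a difference above 0, against 52.2% of all measured genes. Without scaling between the arrays the count was 33 of 60 (55%), against 41.4% of all genes, so the share above 0 moves with the scaling for both. A change was counted from a log2 difference of 0.32, which is a signal 25% above that of the lower array. By this threshold 1 gene was higher on the heat array, Hist1h1c, or 1.67% of the 60, against a background of 5.52%. The genes lower by the 25% threshold were 3, namely Hist1h2ah, Hist1h4m and H2afy3, or 5% against 5.69%. None of the 60 was 2-fold higher or lower, against 0.21% and 0.453% of all measured genes. Genes detected on 1 array only are not in these counts. Among measured genes under the median level, 2 of 15 histone genes (13.3%) passed the 25% threshold in either direction, against 18.5%, and among those above it 2 of 45 (4.44%), against 3.91%. The shares past either threshold lie near or under the background.

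**Figure D1:**
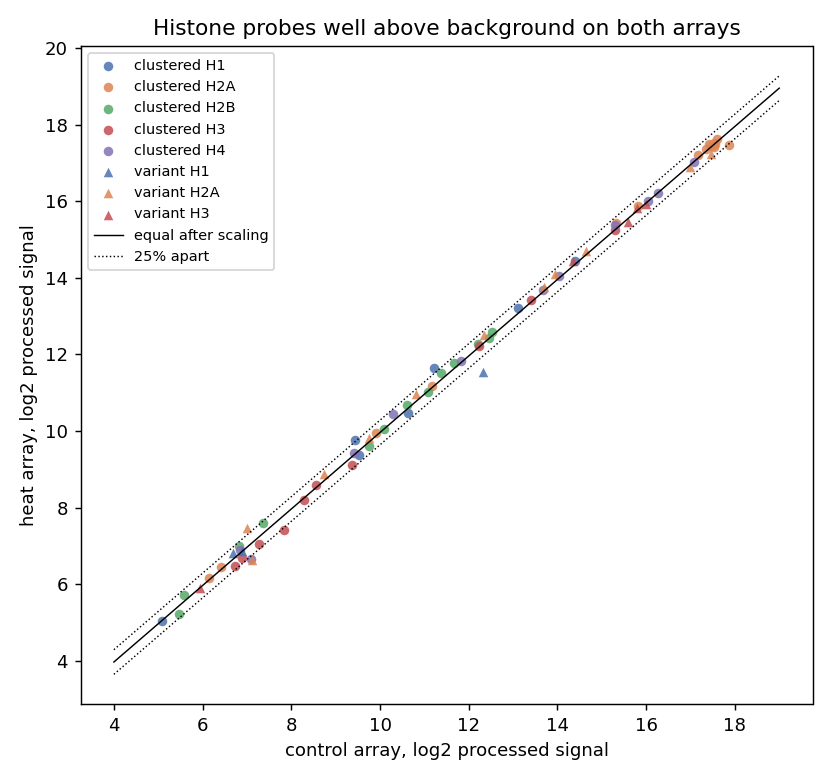
Log2 processed signal of the 75 histone probes well above background on both arrays, control on the horizontal and heat on the vertical axis; circles are clustered genes, triangles variants, colours the histone class. The solid line marks equal signals after scaling and the dotted lines a 25% difference, and most probes lie between the dotted lines.

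The 49 measured clustered genes had a median difference of 0.06, with 34 above and 15 below 0. The 11 measured variant genes had a median of 0.03, with 6 above and 5 below 0. Under quantile normalization, normexp and the authors' deposited table the variant median was -0.0012, -0.0029 and -0.0039, and with cyclic loess, a scaling added after seeing the data, -0.02, so its sign depends on the scaling. The all-gene median was 0.0027, 0.0030, 0.0006 and -0.0074 in the same settings. The difference between clustered and variant genes was not tested, since each group held 1 array.

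Linker histone H1 held the highest value. Hist1h1c (H1.2, one of the somatic linker histones) had signals of 3187 (heat) and 2381 (control) at one probe, and 870 and 690 at the other. Its probes differed by 0.46 and 0.37, so both lay higher on the heat array, and the mean was 0.42. The brighter probe lists no RefSeq gene, and the other lists 1. The other clustered H1 genes stayed under the 25% threshold. Hist1h1e (H1.4) had signals of 9559 and 8802, a difference of 0.16. Hist1h1b (H1.5) had 22090 and 21583, a difference of 0.07. Hist1h1a (H1.1) had 662 and 733, a difference of -0.11. The H1 genes thus lay on both sides of 0, at 3 above and 3 below, with a median of 0.03. Hist1h1d (H1.3) was at -0.13, and Hist1h1t, the testis linker histone, at -0.01, with signals of 33.04 and 34.17.

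Most clustered H2A genes lay just above 0. Of 18 genes 14 were measured, 12 above and 2 below 0, with a median of 0.07. Of all measured genes, 52.2% were above 0. The 14 values may not be independent. Probes at least 85% identical to that of Hist1h2ak, 7 with its own, can read the same transcripts. Hist2h2ac was the highest, with signals of 186270 and 176026 and a difference of 0.12. Hist3h2a had 2 probes at 0.05 and 0.13 and a mean of 0.09. Hist1h2ab, with signals of 59846 and 57686, was at 0.09. The H2A values above 0 are all under the 25% threshold.

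Hist1h2ah stood apart from its near copies. Its signal was 182352 after heat and 239628 in the control, a difference of -0.36. Hist1h2ak had 189934 and 188693, a difference of 0.05. Among the 7 H2A probes at least 85% identical to that of Hist1h2ak, the values ran from -0.36 to 0.08, with a median of 0.01. The low value of Hist1h2ah rests on 1 spot of 1 probe, and the gene has no value when only probes that list 1 RefSeq gene are used. Hist1h2af, at -0.08, was the other clustered H2A gene below 0, and Hist1h2ag, at 0.01, the lowest above it.

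The clustered H2B genes had the highest class median, 0.12, with 8 of 11 measured genes above 0. Hist1h2be had signals of 195 and 165 and the highest difference, 0.27. Hist3h2ba had 52.9 and 48.0 and a difference of 0.18, and its other probe was not well above background. Hist1h2bb, with 2 probes at 0.11 and 0.21, had a mean of 0.16. At the low end, Hist1h2bg had 37.2 and 44.2 and a difference of -0.21. Hist2h2be was at -0.06 (probes -0.12 and -0.01) and Hist2h2bb at -0.02. Several of these signals are low, where differences past the 25% threshold were more frequent among all genes.

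**Figure D2:**
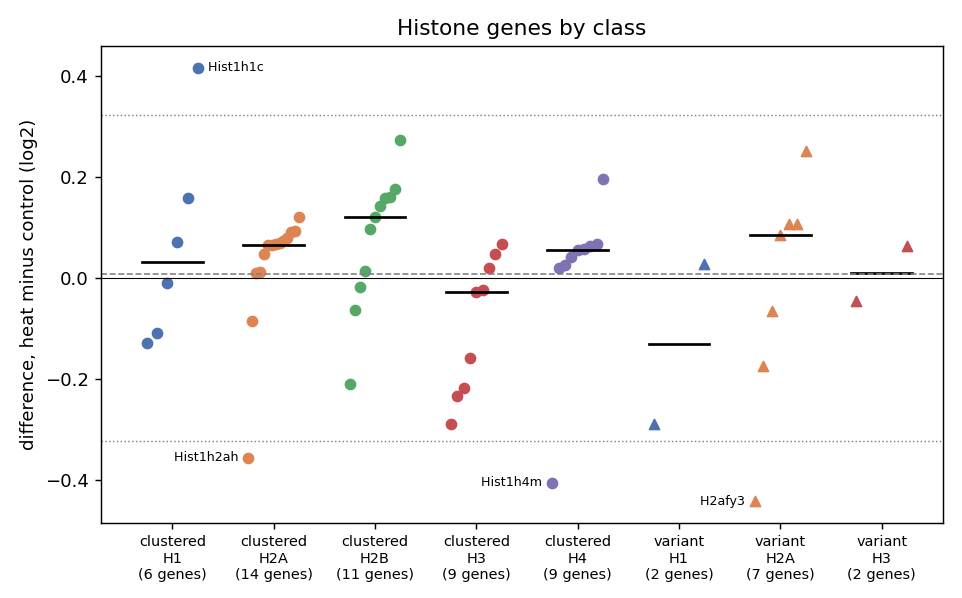
Difference of each of the 60 measured histone genes, heat minus control (log2), by class, with clustered genes as circles and variants as triangles. Black bars are class medians, the dashed line is the median of all genes (0.0076) and the dotted lines mark the 25% threshold, which only Hist1h1c, Hist1h2ah, Hist1h4m and H2afy3 pass.

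H3 was the only clustered class with a median below 0, at -0.03, with 3 of 9 genes above 0 (2 of 9 without scaling, 4 of 9 after normexp). With only probes that list 1 RefSeq gene, 2 of 5 were above 0. With the brighter 50% of detected probes, 2 of 4 were above 0. Hist1h3a, Hist1h3i, Hist2h3c1 and Hist2h3c2, all below 0, and Hist1h3f, above 0, have no value in that brighter setting. Hist2h3c2 was the lowest, with signals of 170.5 and 228.3 at one probe and 131.4 and 154.5 at the other. Its probes differed by -0.38 and -0.20, with a mean of -0.29, and neither lists a RefSeq gene. Hist1h3g had 550 and 664 and a difference of -0.23, and Hist1h3a had 89.3 and 106.6 and -0.22. All 3 were lower on the heat array, by less than the 25% threshold. Hist2h3c2 passed it under quantile normalization (-0.32), the authors' deposited table (-0.32), no scaling (-0.33), cyclic loess (-0.33) and its brighter probe alone (-0.38). At the other end, Hist1h3f was at 0.07, Hist1h3c at 0.05 and Hist2h3b at 0.02.

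Clustered H4 genes were nearly all slightly above 0, at 8 of 9, with a median of 0.06. Hist1h4c was the highest, with signals of 1396 and 1251 and a difference of 0.20. Hist1h4h was at 0.07 and Hist4h4, the gene of the fourth cluster, on chromosome 6, at 0.06. The exception was Hist1h4m, with signals of 100.7 and 136.9 and a difference of -0.40. It had 1 usable probe, which lists 2 RefSeq genes, and after normexp the value was -0.26, under the 25% threshold. Hist1h4d had 2 probes at -0.0039 and 0.12, and Hist1h4k 2 at -0.02 and 0.06. Hist2h4 was at 0.02, with 66330 and 66959.

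The 5 probes over the stem-loop did not share a direction. Their differences were -0.40 (Hist1h4m), -0.22 (Hist1h3a), -0.03 (Hist1h3i), -0.02 (Hist2h2bb) and 0.12 (Hist1h2bf), so 1 lay above and 4 below 0. The 5 come from 3 classes, and 2 of them list 2 RefSeq genes. The labels name a linear amplification kit, and whether its primer needs a poly(A) tail is not given in the sources used here. How far mRNA without a tail was copied was not tested.

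Among the variants, the genes with macroH2A names gave both the highest and the lowest difference. MacroH2A proteins carry a large domain beside the H2A fold. H2afy (macroH2A.1) had 5 usable probes, all higher on the heat array, from 0.16 to 0.51. One had signals of 17751 and 15800, and the one with the highest difference 176 and 127. The latter lies on the plus strand in the array design, opposite to the other 4, and lists no RefSeq gene. The mean was 0.25, and the other 4 lay between 0.16 and 0.21. H2afy2 (macroH2A.2) was at 0.11, with 905 and 863. H2afy3, a macroH2A-named transcript with a non-coding record, was at -0.44, with 98.6 and 137 at 1 probe. After normexp it was -0.29, under the 25% threshold, so its call ends there.

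The other H2A variants differed little. H2afz (H2A.Z.1, found at promoters) was printed at 10 spots, with heat signals from 110737 to 126979 (median 124010) and control signals from 128356 to 132602 (median 130345). The signals as read did not overlap, but after scaling 2 of 10 spot differences were above 0 and 8 below. The mean difference was only -0.06 (spot SD 0.07), which repeats the spots of 1 array and not the sample. H2afv (H2A.Z.2) was at 0.11, with 26893 and 25654. H2afx, whose phosphorylated protein marks DNA breaks, was at 0.09, with 13799 and 13362. H2afj had 155480 and 180099, a difference of -0.17. Its probe matched that of Hist1h2ak at 38 of 47 overlapping bases, and whether it also reads clustered H2A transcripts was not tested.

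The H3.3 genes lay near 0. H3f3a had 3 probes from -0.02 to 0.13 and a mean of 0.06. H3f3b, the other H3.3 gene, had 2 probes at -0.07 and -0.02 and a mean of -0.05. The 2 genes encode the same protein. Their values had opposite signs, and each lay nearer to 0 than the spot SD of 0.08.

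Variant H1 genes gave no shared direction. H1fx had a probe with signals of 2994 and 5120, a difference of -0.74, and another with 112 and 103, a difference of 0.16. The mean of -0.29 thus joins probes of opposite sign. The lower probe lists no RefSeq gene and has no position in the array design, and the other lists 1 gene. H1foo, the oocyte linker histone, was at 0.03 with 117 and 118. H1f0, a linker histone of resting and differentiated cells, passed the background flag only after heat, with 32.2 against 19.1. H1fnt, a spermatid linker histone, passed it only in the control, with 15.5 against 44.2.

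For genes detected on 1 array only, a bound takes the place of a difference. The share of such genes among all gene names is not given here. Each bound sets the bright signal against the higher of the dim probe's own and the lowest signal among probes well above background on the other array. H1f0 was at least 1.07-fold higher on the heat array. H1fnt was at least 1.73-fold higher on the control array, and the pseudogene Hist3h2bb-ps, with 14.3 and 32.9, at least 1.29-fold higher there. The 8 genes not well above background on either array were Hist1h2ac, Hist1h2ad, Hist1h2al, Hist1h2bp, Hist1h2bq, Hist2h2aa1, H2afb1 and H2afb2.

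Several probes of a histone gene mostly gave like values. The 11 genes with several usable probes had a median range between probes of 0.11, from the 0.05 of H3f3b to the 0.89 of H1fx, and 7 of 11 (63.6%) had 1 sign at every probe. Over all 6553 such genes the median range was 0.16 and 52.1% had 1 sign. At the 10 spots of a Hist1h4d probe, heat signals ran from 121740 to 139863 and control signals from 134387 to 141221, which overlap, with a mean difference of -0.0039 (spot SD 0.07).

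**Figure D3:**
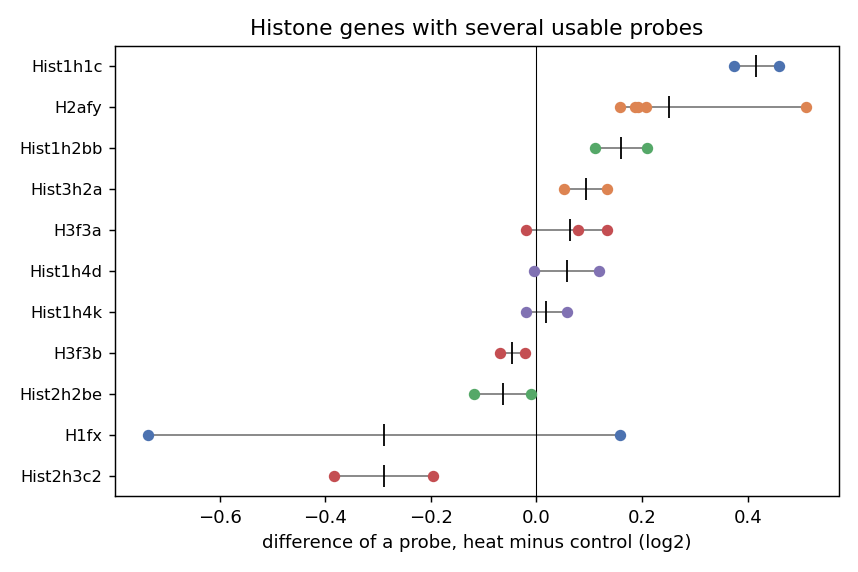
Difference of each usable probe, heat minus control (log2), for the 11 histone genes with several usable probes; black ticks are gene means and grey lines span a gene's probes. H2afy and Hist1h1c lie above 0 at every probe, Hist2h3c2 below 0 at both, and H1fx spans 0.89.

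The Hist1 genes on chromosome 13 had 37 of 42 measured, 26 above and 11 below 0, with a median of 0.06. Their 2 main blocks of probes (mm9, from 21808994 to 22133139 and from 23622937 to 24026659) had medians of 0.05 over 13 genes and 0.06 over 24. The probe of Hist1h2al, a gene that was not measured, lies apart from both blocks, at 51295494. Hist2 on chromosome 3 had 9 of 10 measured, 5 above and 4 below 0, with a median of 0.02. Hist3 on chromosome 11 had 2 measured genes, both above 0, with a median of 0.14, the highest of the loci. Of the 4 measured genes known for germ cells, 3 lay above 0 and none passed the 25% threshold. Hist1h2ba, a testis H2B, was at 0.16 and its neighbour Hist1h2aa, a testis H2A, at 0.07. The Hist1h2aa probe had signals of 201972 (heat) and 197159 (control), the highest heat signal among the usable histone probes. It matched the Hist1h2ak probe at 41 of 55 overlapping bases. Whether it reads transcripts of other H2A genes was not tested, so its signal is not evidence of testis gene expression in blood.

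Promoter sequences from RefSeq (GRCm38.p6, 250 bases before to 50 after a start) were held for 62 of the 71 genes. The octamer ATTTGCAT, known as the binding site of OCT1 in H2B promoters, was searched on both strands. It was in 6 of 11 clustered H2B and 7 of 17 clustered H2A promoters, in 0 of 6 H1, 0 of 7 H3 and 0 of 8 H4. It was also in 1 of 13 variants (H3f3b), and in 1.74% of all promoters. The H2A and H2B counts are not independent. Hist1h2aa and Hist1h2ba share 1 site, read on opposite strands of overlapping promoters, and so do Hist1h2ae and Hist1h2bg. CCAAT was in 43 of 49 clustered promoters, 8 of 13 variant promoters and 37.4% of all. TATAAA was in 29 of 49, 1 of 13 and 13.6%. Such a match is a description of these letters only. The 4 stretches below show the octamer in capitals in H2B genes at both ends of the range of differences.
Hist1h2be: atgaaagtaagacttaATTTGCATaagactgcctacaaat
Hist1h2bb: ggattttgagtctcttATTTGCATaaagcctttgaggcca
Hist1h2ba: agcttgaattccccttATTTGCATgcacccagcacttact
Hist1h2bg: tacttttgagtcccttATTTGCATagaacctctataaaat

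The 4 promoters lie at chr13:23585921-23586220 (minus strand), chr13:23746484-23746783 (plus), chr13:23934107-23934406 (minus) and chr13:23571150-23571449 (plus). The octamer did not separate the H2B differences. The 6 measured H2B genes with it ranged from -0.21 to 0.27 with a median of 0.13. The 3 without it ranged from 0.12 to 0.18 with a median of 0.14. For clustered H2A, the 6 measured genes with it ranged from -0.36 to 0.12 with a median of 0.08. The 8 without it ranged from -0.08 to 0.08 with a median of 0.06. H2A and H2B genes often start back to back, and 6 such pairs had starts 164 to 281 bases apart. In the 3 pairs measured at both genes, Hist1h2aa and Hist1h2ba were at 0.07 and 0.16, Hist1h2ak and Hist1h2bn at 0.05 and 0.14, and Hist1h2ae and Hist1h2bg at 0.07 and -0.21. The last pair thus had opposite signs, but each gene rests on 1 spot of 1 probe that lists no RefSeq gene. Signals were 86.4 (heat) and 84.7 (control) for Hist1h2ae, and 37.2 and 44.2 for Hist1h2bg. The values of Hist1h2aa, Hist1h2ak and Hist1h2ae each lie nearer to 0 than the spot SD of 0.08. Whether the genes of a pair move together was not tested.

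Genes that make and carry histones lay mostly on the other side of 0. Of 20 genes of histone mRNA processing, 3 were above and 17 below 0, with a median of -0.06 against 0.0076 over all genes, and 52.2% of all genes above 0. None reached the 25% threshold, against 5.52% of all genes higher and 5.69% lower. Slbp, the stem-loop binding protein, was at -0.10, and Npat, the cyclin E-dependent activator of histone transcription, at -0.06. Upf1 (RNA helicase of histone mRNA decay) was at -0.20, Ncbp1 (cap-binding subunit) at -0.19 and Cstf2 (cleavage factor) at -0.16. Zfp473, which binds the U7 particle's complex on histone pre-mRNA, was at 0.22 and Hinfp, an activator of H4 genes, at 0.10.

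The histone chaperones and exchange factors gave 12 of 32 above 0, against 52.2% of all genes, with a median of -0.03. Nap1l4, an H2A-H2B chaperone, was at -0.32, just under the 25% threshold, Atrx (partner of Daxx in H3.3 deposition) at -0.21 and Ssrp1 (a FACT subunit) at -0.17. Cabin1 (HIRA complex) was at 0.25, Cdan1 at 0.22 and Srcap (H2A.Z exchange) at 0.15. No chaperone gene passed the 25% threshold, against 5.52% of all genes higher and 5.69% lower.

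S phase genes also lay mostly below 0, at 20 of 23, with 3 above 0 against 52.2% of all genes, and a median of -0.12. Cdt1 (replication licensing) was at -0.50, and was the 1 gene of 23 lower by the 25% threshold, against 5.69% of all genes. Ccne1 was at -0.23 and Cdc6 at -0.17, while Tk1 and Rrm1 were at 0.03 and 0.02. The clustered histone genes, at 34 of 49 above 0, had the opposite balance on the same arrays. The difference between the lists was not tested, since each group held 1 array. Of 8 measured chromatin genes outside the name rule, 3 were above 0 and the median was -0.04, with Cenpa, the centromeric H3 variant, at 0.19 and Hmgb2 at -0.11.

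**Figure D4:**
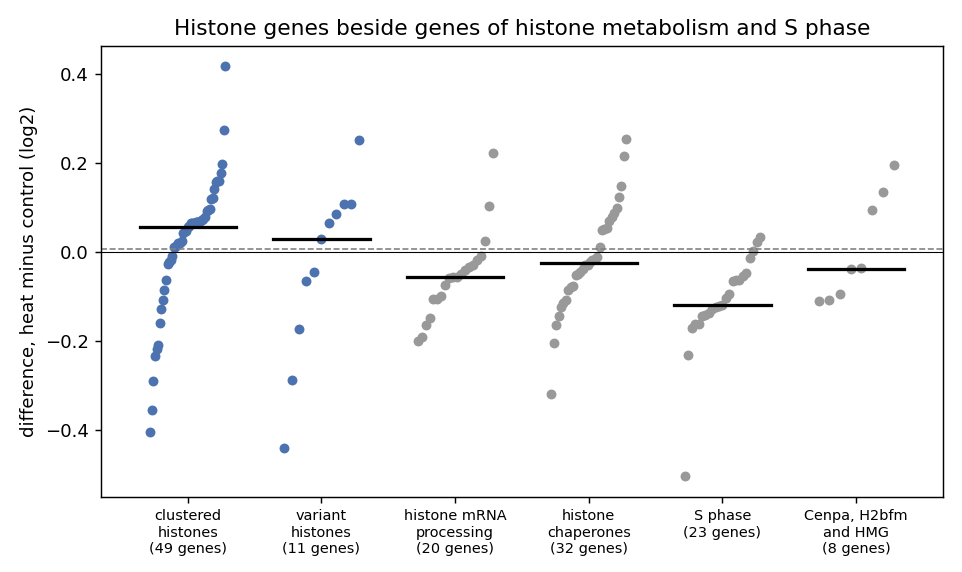
Difference of each measured gene, heat minus control (log2), for clustered and variant histone genes (blue) and 4 lists of related genes (grey); black bars are medians and the dashed line is the median of all genes. Clustered histone genes have a median of 0.06, against -0.06 for histone mRNA processing and -0.12 for S phase.

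Probe composition differed between histones and the array. The median GC content was 51.7% in usable clustered probes and 43.3% in all usable probes. Over all probes the median difference was higher at higher GC content, from -0.0048 under 40% to 0.03 at 60% or more. Histone probes had medians of 0.05 (under 40%), 0.05, 0.07 and 0.05 (60% or more) in the same 4 bands, each above that of all probes. The part of GC content in the histone values was not tested further.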

How the data were processed

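The deposited scanner files hold linear intensity values of the green channel (Cy3), per the file headers, read with Agilent Feature Extraction 10.7.1.1 and probe coordinates on mm9; the submitters' processing notes name version 9.1. The authors' deposited value table holds log2 values, which followed the log2 signals of each array with r of 0.99994 (column medians 5.26) and served as an alternative. Spots marked as outliers, 168 after heat and 149 in the control, were left out, spots of a probe were averaged after log2, and each array's 75th percentile was subtracted. A probe was detected if the flag for signal well above background held at over 0.5 of its spots.

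The members and lists were chosen with earlier results of these data known. Named were every variant gene, the 3 highest and 3 lowest clustered genes of each class, genes with several usable probes, genes past the 25% threshold, genes detected on 1 array, and up to 3 highest and 3 lowest of each related list; Slbp and Npat, and further histone genes given as examples, were named after their values were seen. Current names came from RefSeq (GRCm38.p6), which held all 71 genes. Alternatives were no scaling, quantile normalization, the median of detected probes, normexp (offset 50) with quantile normalization, the authors' table, no filter or a stricter one on dim probes, the brightest probe per gene, probes as the unit and 2-fold; cyclic loess and only those probes that list a single gene were added after seeing the data. Differences planted in simulated arrays were used to test the steps. Python 3.11.15, numpy 2.4.6, pandas 2.3.3, matplotlib 3.10.9, R 4.3.3, limma 3.58.1 and data.table (version 1.17.8) were used.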

Additional observations from a re-analysis of the deposited data

How the results depend on the processing

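No paired analysis was possible because each group held 1 array, and none could be left out. The median over histone genes was 0.05 and ranged over the alternatives from 0.01 without scaling to 0.06 with only probes that list 1 gene, the clustered median (0.06) from 0.02 to 0.06 and the variant median (0.03) from -0.02 to 0.09. The count of histone genes higher by the 25% threshold was 5 with no filter on dim probes, 3 with probes as the unit and 0 at 2-fold, against 1. The count lower was 5 without scaling, 7 with no filter, 5 with the brightest probe per gene, 5 with probes as the unit, 1 with probes that list 1 gene and 0 at 2-fold, against 3; it was 4 under quantile normalization, the authors' table and cyclic loess, 2 under normexp and with the brighter 50% of probes, and 3 with the median of detected probes. Of 567 values of single genes under the alternatives, 549 lay within 1 spot SD of the reported value. In all, 45 of 60 genes kept 1 sign throughout, 28 above and 17 below 0. Part of this agreement is built in. For a gene with 1 probe, the settings on dim, brightest or single-gene probes return the reported value itself wherever they keep the gene. No scaling and the median of detected probes shift every gene by the same small amount. These counts are therefore not independent support for single values. The largest shifts were those of H1fx, at -0.74 with its brighter probe alone, and Hist3h2ba, at 0.76 with its dim probe included; dim probes limit both counts. The cause of the changes was not tested.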
